A study of Mus musculus with 2 samples.

Results

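The receptor gene Notch1 and 5 genes known as targets of NOTCH signalling in T cells (Notch3, Dtx1, Hes1, Myc and Ptcra) were examined for regions listed as enriched by chromatin immunoprecipitation against KLF4, a transcription factor with zinc fingers. The data were 1 list of 8148 intervals from 1 sequenced library (ChIP-seq). An interval belonged to a gene when it overlapped a fixed window around that gene by at least 1 bp. The windows, in mm9 positions, were 26.28 to 26.40 Mb on chromosome 2 (Notch1), 32.23 to 32.33 Mb on chromosome 17 (Notch3), 121.10 to 121.20 Mb on chromosome 5 (Dtx1), 30 to 30.13 Mb on chromosome 16 (Hes1), 61.75 to 61.90 Mb on chromosome 15 (Myc) and 46.85 to 46.94 Mb on chromosome 17 (Ptcra). They held 30 of the 8148 intervals, or 0.368% of the list. The intervals were selected on their listed positions, and the genes were chosen by their interval widths and heights as already known from this list, so all counts, widths, heights and ranks below describe the list and carry no test.

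The cells were sorted from bone marrow as positive for GFP, CD4 and CD8, 4 weeks after transplantation, in mice whose T cell acute lymphoblastic leukaemia (T-ALL) was induced by NOTCH1. The strain of both libraries is given as Klf4flox/flox vav-Cre in C57BL/6. Vav-Cre is a recombinase active in blood cells, so recombination is not limited to T cells. The library made with the KLF4 antibody carries the genotype label KLF-4 KO, and the input library, for which no processed file was used here, carries the label Normal. Were the genotype label of the ChIP library correct, its cells would lack the antibody's target, and for that reason the intervals are called listed regions and not KLF4 binding sites. The leukaemia also carried an introduced NOTCH1, and in a list of intervals reads from it cannot be told apart from reads of the mouse Notch1 locus. No replicate existed, and how many animals gave the cells is not given in the sources used here.

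NOTCH1 is a cell surface receptor that is cut upon binding a ligand on a neighbouring cell. Its intracellular part then enters the nucleus and activates genes together with the DNA-binding protein RBPJ. In developing T cells this signal is needed for commitment to the lineage, and constant NOTCH1 activity is a common driver of T-ALL. KLF4 belongs to a family of factors that bind GC-rich and CACCC-containing DNA.

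Promoter sequences from RefSeq (build GRCm38.p6) were matched for 4 of the 6 genes and are shown because GC boxes and CACCC letters are the kind of DNA this factor family binds. Each line gives the 250 bases before the annotated start, read in the direction of the gene, and capitals mark every match on either strand to CACCC, to GGGCGG (the GC box), or to any of 3 longer strings, namely GGGTGTGGC, the related GGGCGTGGC, and the shorter form CCACGCCC. All 4 genes are on the minus strand. The promoters lie at chr2:26503823-26504072 (Notch1), chr17:32166891-32167140 (Notch3), chr5:120711670-120711919 (Dtx1) and chr17:46763713-46763962 (Ptcra) in GRCm38.p6. These positions cannot be compared with the mm9 positions of the intervals, so whether an interval covers any of these promoters was not determined.
Notch1: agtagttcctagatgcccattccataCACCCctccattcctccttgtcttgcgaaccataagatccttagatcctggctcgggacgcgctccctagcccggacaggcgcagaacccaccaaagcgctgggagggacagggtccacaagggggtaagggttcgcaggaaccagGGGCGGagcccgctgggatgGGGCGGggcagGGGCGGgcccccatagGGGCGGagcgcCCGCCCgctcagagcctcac
Notch3: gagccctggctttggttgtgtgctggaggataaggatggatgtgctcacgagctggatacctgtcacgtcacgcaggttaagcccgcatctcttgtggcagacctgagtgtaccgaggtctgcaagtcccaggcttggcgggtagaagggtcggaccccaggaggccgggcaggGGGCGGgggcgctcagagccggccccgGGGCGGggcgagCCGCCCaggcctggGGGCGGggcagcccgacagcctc
Dtx1: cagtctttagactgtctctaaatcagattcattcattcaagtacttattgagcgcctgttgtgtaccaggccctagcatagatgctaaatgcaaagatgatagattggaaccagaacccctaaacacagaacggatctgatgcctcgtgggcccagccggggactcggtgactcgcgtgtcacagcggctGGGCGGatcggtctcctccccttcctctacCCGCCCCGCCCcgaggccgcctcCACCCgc
Ptcra: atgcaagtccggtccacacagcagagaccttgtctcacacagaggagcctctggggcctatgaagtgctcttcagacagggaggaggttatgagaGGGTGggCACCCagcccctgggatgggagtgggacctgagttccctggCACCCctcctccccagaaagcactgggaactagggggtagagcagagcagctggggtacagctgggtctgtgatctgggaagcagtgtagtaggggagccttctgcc

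The 4 promoters fell into a GC-box group and 1 without GC boxes. The GC box matched 5 times in the Notch1 promoter, between -78 and -20 from the start (the position of the first base of each match). Among 32526 RefSeq promoters of distinct sequence, 33.0% held at least 1 GC box and 1.95% held 5 or more. The Notch3 promoter held 4 GC boxes, a number reached by 4.12% of promoters, and the Dtx1 promoter held 3, reached by 8.53%, of which the pair at -30 and -25 overlapped by 1 base. The Ptcra promoter held none.

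Ptcra instead had 3 CACCC matches, at -155, -148 and -107, a number reached by 6.97% of promoters, while 52.1% held at least 1. Notch1 and Dtx1 each had 1 CACCC match and Notch3 had none. Of the longer strings none matched in these 4. Among all promoters GGGTGTGGC occurred in 1.21%, GGGCGTGGC in 2.67%, and CCACGCCC, whose reverse complement is contained in the previous string, in 4.83%. TGGGAA, the core letters bound by RBPJ, matched only in the Ptcra promoter among these 4, at -84 and -32. It occurred at least once in 21.6% of promoters and at least as often as in Ptcra in 2.77%.

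The promoters with GC boxes were also above the median of all promoters in CpG, and Ptcra was below it. GC content was 66.0% for Notch1, 68.8% for Notch3, 56.4% for Dtx1 and 60.4% for Ptcra, against a median of 52.4% over all promoters. Ptcra had 1 CpG in 250 bases, against 16 in Notch1, 17 in Notch3 and 15 in Dtx1, with a median of 6. More CpG than in Notch1, Notch3 and Dtx1 was found in 23.7%, 21.8% and 25.6% of all promoters, and more than in Ptcra in 81.4%. The count of GC boxes in a promoter depends on this composition, and its part in the values above was not tested.

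The 6 windows differed widely in what they held, and none was empty. Notch1 had 11 intervals covering 39.0 kb, 32.5% of its window. Dtx1 had 8 intervals covering 31.4 kb, or 31.4% of its window. The other genes had far less, with 4 intervals and 5.79% covered for Ptcra, 3 and 3.17% for Hes1, 2 and 2.19% for Notch3, and 2 and 1.33% for Myc. Over the 690 kb of the 6 windows 12.2% was covered, against 0.423% of the span between first and last intervals of the chromosomes in the whole list.

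**Figure D1:**
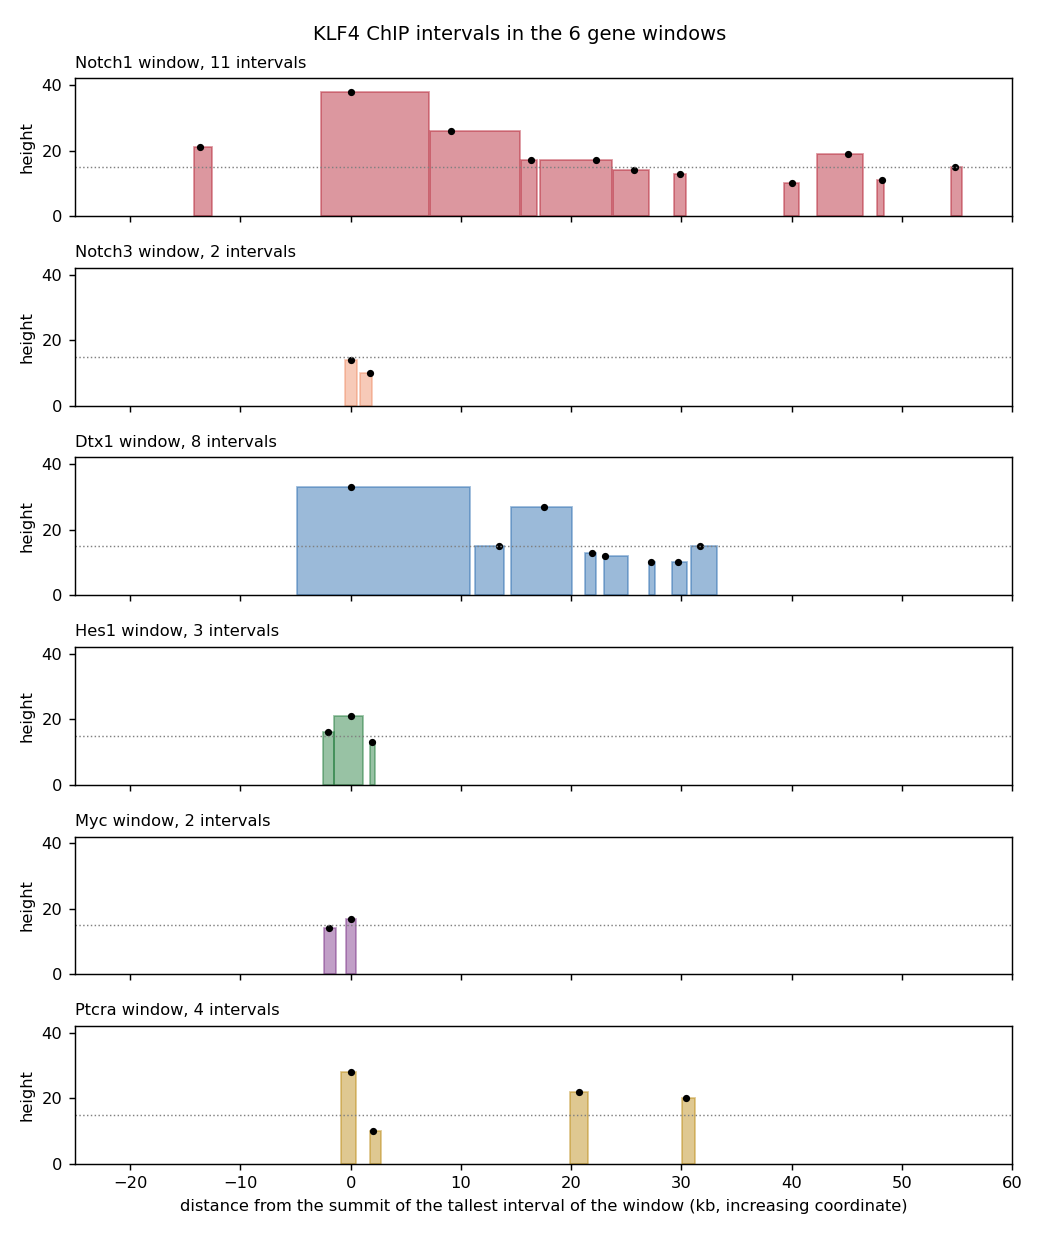
Intervals of the KLF4 ChIP library in the 6 gene windows. The x axis is the distance in kb from the summit of the tallest interval of each window, boxes span each interval up to its height (the authors' score), dots mark summits, and the dotted line is the median height of the list, 15. In the Notch1 and Dtx1 windows the tallest interval, of height 38 and 33, is followed at higher coordinates by a chain of intervals, and the Hes1, Myc and Notch3 windows hold 1 small group each.

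Most intervals of the windows were ordinary in height and a part of them were wide. Height here is the whole number that the authors gave each summit, on a scale named nowhere. The 30 intervals had a median height of 15, the same as the list, and ranged from 10 to 38. A height of 20 or more was reached by 9 of the 30 (30%), where 23.9% of the list reached it, and 13 were below the median of 15, as were 42.7% of the list. Width differed more. A width of 2.5 kb or more was found in 9 of the 30, against 5.03% of the list. More than 5 kb was found in 5 of them, 3 in the Notch1 window and 2 in the Dtx1 window, against 0.565% of the list. These 5 were 10.9% of the 46 intervals of that width in the list.

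**Figure D2:**
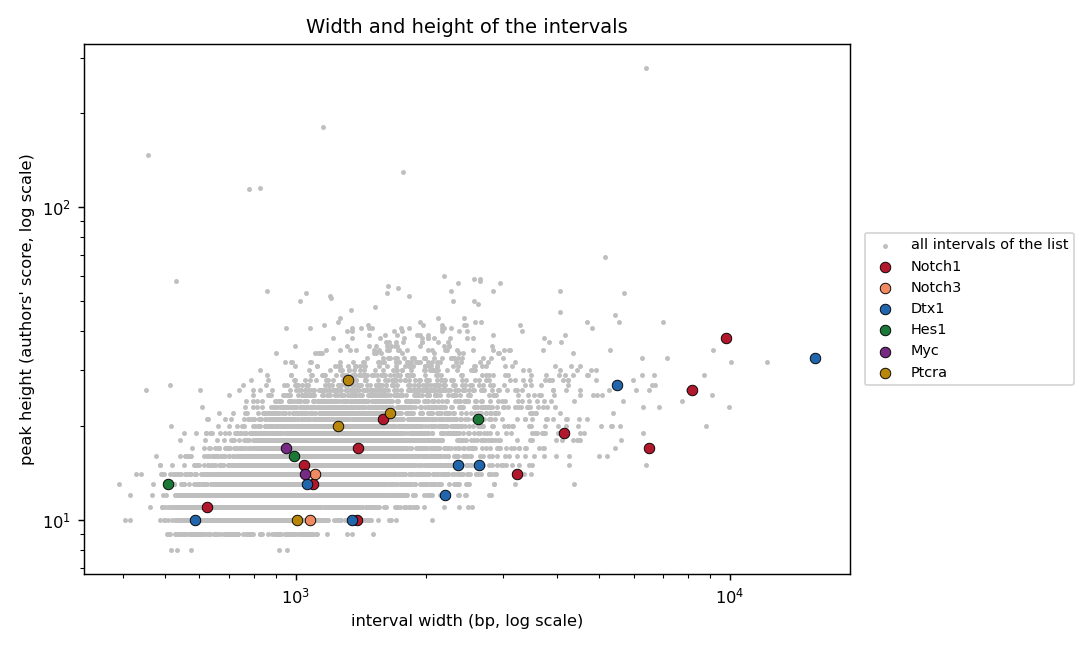
Width in bp (x axis, log scale) against height (y axis, log scale) of all 8148 intervals in grey, with the 30 intervals of the gene windows in colour. The widest interval of the list, 15682 bp, is in the Dtx1 window, while the intervals of the Notch3, Myc and Ptcra windows, 948 to 1644 bp wide, lie among the bulk of the list.

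Notch1 is the mouse gene of the receptor whose introduced form induced this leukaemia, and its window held the most intervals of the 6. Reads from the introduced NOTCH1 cannot be told apart from reads of this locus. In order of coordinate their heights were 21, 38, 26, 17, 17, 14, 13, 10, 19, 11 and 15. The tallest was the second, at 26311648 to 26321423 on chromosome 2, with a width of 9776 bp. It ranked 80 of 8148 by height and 5 by width. The next interval, at 26321502 to 26329664, had a height of 26 over 8163 bp and ranked 10 by width. Heights then stayed at 17 or below until the interval at 26356618 to 26360756, which had a height of 19 over 4139 bp.

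Of the 11 Notch1 intervals, 5 formed an almost unbroken stretch. These, the second to the sixth, were separated by gaps of 78, 134, 265 and 166 bp. Joining intervals at most 1 kb apart made them 1 block of 29.7 kb, from 26311648 to 26341372, of which 97.8% lay inside an interval. Among the 7472 blocks that the list then had, this was the second widest, after a block of 35.7 kb on chromosome 11 at 52062616 to 52098297. It joined 5 intervals, as did 4 blocks of the list with this one included, and 2 blocks joined more.

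Within the block, the widest interval was also the tallest, and some intervals were lower than the median for their width. The interval at 26331453 to 26337974 was 6522 bp wide, rank 21 in the list, and had a height of 17. The 32 intervals of the list with 0.8 to 1.25 times that width had a median height of 26. The interval at 26338141 to 26341372 had a height of 14 over 3232 bp, against a median of 22 for the 271 intervals of like width. The tallest interval, of height 38, was at the top of the 10 intervals of its own width class, whose median was 27.5. The interval of 8163 bp had a height of 26, where 17 intervals of like width had a median of 27. That of 1389 bp had a height of 17, equal to the median for its width. How much of the whole list lies below such a median was not computed, so each comparison describes an interval alone.

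The other 6 Notch1 intervals lay at gaps of 1.30 kb or more from their neighbours, and 5 of them were 1588 bp or narrower. An interval of 1588 bp and height 21 lay 9.94 kb before the block, at 26300118 to 26301705. After the block came intervals at 26343646 to 26344740 (1095 bp, height 13) and 26353618 to 26355001 (1384 bp, height 10). The interval of 4139 bp was followed by one of 624 bp and height 11 at 26362057 to 26362680. The last, at 26368731 to 26369775, had a height of 15 over 1045 bp, and the fourth, inside the block at 26329799 to 26331187, a height of 17 over 1389 bp. Nearest outside the window were an interval of height 16 ending at 26265178 and one of height 11 starting at 26402951, 14.8 and 2.95 kb from its edges.

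Notch1 is on the minus strand in GRCm38.p6, so lower coordinates lie towards the 3′ side of the gene if mm9 has the same orientation. On that reading the block of 29.7 kb and the tallest summit lay on the 3′ side of the interval of 4139 bp and of the last 2 intervals. In GRCm38.p6 the protein-coding neighbours of Notch1 are Sec16a before and Egfl7 after it, and without an mm9 annotation it was not determined which of these genes each interval overlaps.

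Notch3 encodes a related receptor whose gene is itself a target of NOTCH signalling, and its window was among the emptiest of the 6. Its first interval, at 32300792 to 32301901 on chromosome 17, had a height of 14 over 1110 bp. The second, at 32302190 to 32303265, had a height of 10 over 1076 bp, and 93.9% of the list was taller. Both heights were below the list's median and both widths were close to the list's median of 1137 bp. The 2 intervals were 288 bp apart and alone in the window. The nearest other interval began 117 kb after them, and the nearest on the other side ended 127 kb before them.

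Dtx1 encodes Deltex1, a ubiquitin ligase that acts on NOTCH signalling and is among the genes NOTCH1 activates in T cells. Its heights in order of coordinate were 33, 15, 27, 13, 12, 10, 10 and 15. The first interval, at 121124190 to 121139871 on chromosome 5, was the widest of the list, 15682 bp, and ranked 155 by height. No other interval of the list had 0.8 to 1.25 times its width. The third, at 121143603 to 121149103, had a height of 27 over 5501 bp and ranked 35 by width.

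Over the whole window the Dtx1 intervals lay closer together than those of Notch1, whose median gap was 1458 bp. All 7 Dtx1 gaps were 1.89 kb or less, with a median of 660 bp. Of the 38.1 kb from the first to the last interval, 82.4% was inside an interval. In the Notch1 window the same share was 55.9% of 69.7 kb. Joined at up to 1 kb, the first 3 Dtx1 intervals made a block of 24.9 kb, the third widest of the list. Inside an interval lay 95.6% of this block, against 97.8% of the Notch1 block. The gaps within the Notch1 block, 78 to 265 bp, were all shorter than the shortest Dtx1 gap, 419 bp. The second interval, at 121140304 to 121142942, was 2639 bp wide with a height of 15.

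The remaining Dtx1 intervals had heights at or below the list's median of 15, and some were wide. Those at 121150262 to 121151324 and 121151980 to 121154184 had heights of 13 and 12 over 1063 and 2205 bp. Those at 121156078 to 121156662 and 121158154 to 121159500 both had a height of 10, over 585 and 1347 bp. The last, at 121159920 to 121162284, had a height of 15 over 2365 bp. Of the list, 7.56% was wider than the interval of 2205 bp and 6.06% was wider than that of 2365 bp. The tallest interval was at the low-coordinate end, as in the Notch1 block.

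The edge of the Dtx1 window left out a near neighbour. An interval of height 14 and 1188 bp ended at 121099674, 326 bp before the window, and 24.5 kb before the first interval inside it. On the other side no interval followed for 478 kb, and 13.4% of all gaps in the list were longer. Dtx1 lies between Rasal1 and Oas2 among protein-coding genes and is on the minus strand in GRCm38.p6. If mm9 has the same orientation, the widest interval was on the 3′ side of the others.

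**Figure D3:**
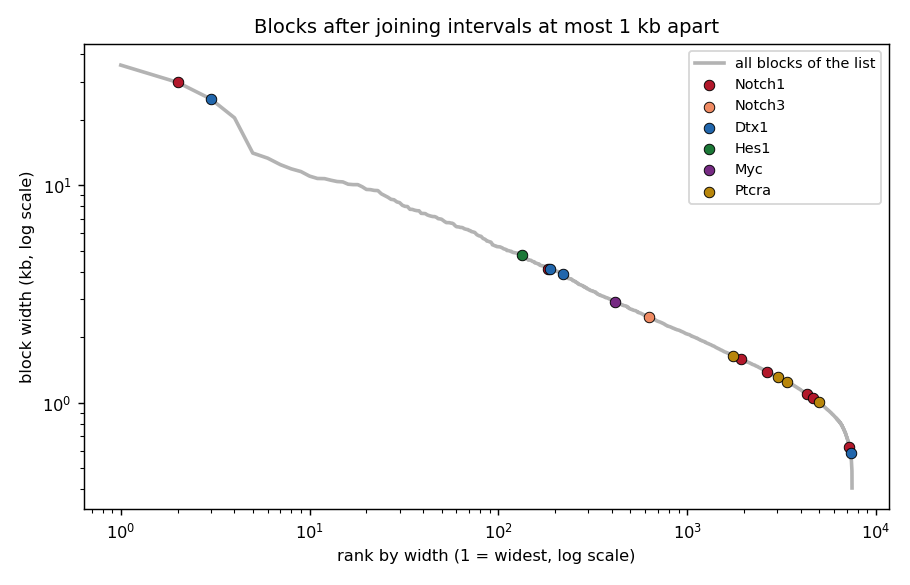
Widths of the 7472 blocks made by joining intervals at most 1 kb apart (y axis in kb, log scale) against their rank (x axis, log scale), with the blocks of the gene windows in colour. The Notch1 block of 29.7 kb and the Dtx1 block of 24.9 kb hold ranks 2 and 3, and the Hes1 block of 4.76 kb ranks 133.

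Hes1 encodes a basic helix-loop-helix repressor that is a classic NOTCH target. Its 3 intervals were packed into 4.76 kb, with gaps of 68 and 569 bp. The middle one, at 30065010 to 30067637 on chromosome 16, had a height of 21 over 2628 bp. The first, at 30063952 to 30064941, had a height of 16 over 990 bp. The third, at 30068207 to 30068715, was the narrowest of the 30, with a height of 13 over 509 bp, and 99.6% of the list was wider.

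The Hes1 group was the only one in its window. No interval was listed for 219 kb before it or 319 kb after it. Of the gaps in the list, 22.7% were longer than the former and 17.6% longer than the latter. Joined into 1 block of 3 intervals it ranked 133 of 7472 by width. The middle interval had the median height of the 567 intervals of like width, 21.

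Myc encodes a transcription factor that drives cell growth and is a main effector of NOTCH1 in T-ALL. Its window, the longest of the 6 at 150 kb, held 2 intervals. The first, at 61816909 to 61817960 on chromosome 15, had a height of 14 over 1052 bp. The second, at 61818868 to 61819815, had a height of 17 over 948 bp. The heights lay on either side of the list's median, and both widths were below the median of 1137 bp.

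The Myc pair was the most isolated group of the 6 windows. Its members were 907 bp apart, and no other interval was listed for 1.16 Mb before or 2.01 Mb after them. Of the gaps in the list, 6.58% were longer than the former and 3.58% longer than the latter. NOTCH1 is known to act on Myc in T cells through a distant enhancer outside the gene, whose mm9 position was not used here. A region under the unknown calling threshold would not be in the list, so an empty stretch does not show that signal was absent.

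Ptcra encodes the pre-T cell receptor alpha chain, which pairs with the T cell receptor beta chain in immature T cells. Its 4 intervals had heights of 28, 10, 22 and 20, with a median of 21, the highest median of the 6 windows as given. In windows widened by 10 kb on each side the Ptcra median was 16, equal to those of Notch1 and Hes1, and after merging within 1 kb it was 21, equal to that of Hes1. The tallest, at 46888259 to 46889574 on chromosome 17, was 1316 bp wide and ranked 354 by height. The third, at 46909000 to 46910643, had a height of 22 over 1644 bp, and the fourth, at 46919137 to 46920385, a height of 20 over 1249 bp.

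The heights of the Ptcra intervals were set against the median of intervals of like width in the list. How much of the whole list exceeds such a median was not computed, so the comparison describes each interval alone. The tallest had a height of 28 where the 3168 intervals of like width had a median of 16, and those of 22 and 20 compared with medians of 18 and 16. The second interval, at 46890897 to 46891901, had a height of 10 over 1005 bp, where intervals of like width had a median of 15. The gaps inside the window were 1.32, 17.1 and 8.49 kb, and none joined at 1 kb. Those from the first and last intervals to the nearest outside were 39.3 and 72.6 kb, against a list median of 52.7 kb. The nearest intervals outside had heights of 9, ending at 46848920, and 27, starting at 46993016, and the former lay 1.08 kb from the window edge. Cnpy3 is the protein-coding gene before Ptcra in GRCm38.p6, and which gene each interval overlaps was not determined.

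Set against tiles of the genome of the same length, the windows ranged from Notch1, whose count few tiles reached, to Myc. Of tiles of 120 kb, 19.7% held at least 1 interval and 0.0824% (18 of 21849) held 11 or more, the Notch1 count. Of tiles of 100 kb, 17.5% held at least 1, 0.195% (51 of 26217) held 8 or more, the Dtx1 count, and 7.02% held 2 or more, the Notch3 count. Of tiles of 90 kb, 16.4% held at least 1 and 1.31% held 4 or more, the Ptcra count. At 130 kb, 20.9% held at least 1 and 4.55% held 3 or more, the Hes1 count. At 150 kb, 22.5% held at least 1 and 10.7% held 2 or more, the Myc count. The intervals at Hes1, Notch3 and Myc each joined into 1 block at up to 1 kb, a count that any tile with at least 1 interval reached. The tiles include stretches without genes and the windows were laid around genes, so these shares place each count within the list and do not test it.

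**Figure D4:**
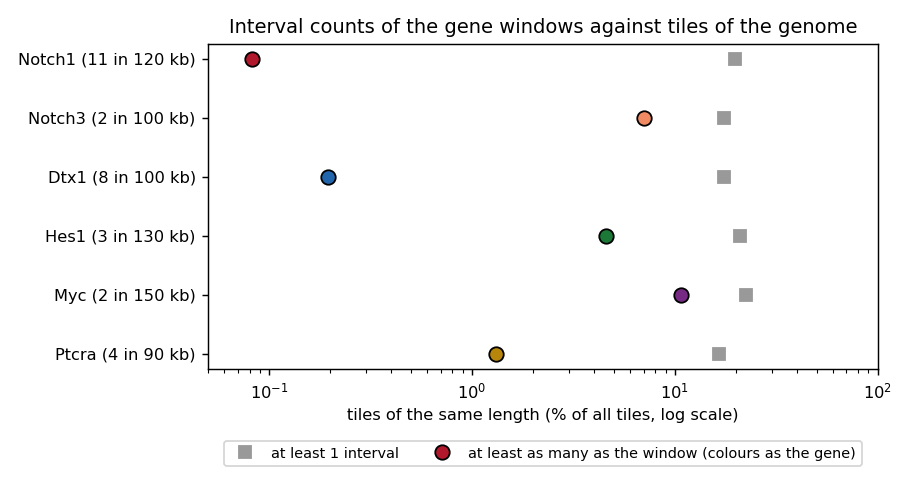
Percentage of genome tiles of the same length as each gene window (x axis, log scale) that held at least 1 interval (grey squares) or at least as many as the window (coloured circles). Notch1 at 0.0824% and Dtx1 at 0.195% are at the low end, and Myc at 10.7% is at the high end.

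Neighbours in the same window had a median gap of 1032.5 bp, against 52.7 kb over the list. Only gaps between intervals of the same window were counted, so none could exceed the window, while the list's gaps had no such limit. Gaps from the windows to intervals outside, such as 1.16 and 2.01 Mb at Myc, were left out. The medians, and the shares of close pairs that follow, therefore do not compare like with like. Of the 24 pairs of neighbours inside the windows, 12 were at most 1 kb apart (50.0%), where 8.32% of pairs in the list were. By gene these were 4 of 10 pairs for Notch1, 4 of 7 for Dtx1, 2 of 2 for Hes1, 1 of 1 for Myc and for Notch3, and 0 of 3 for Ptcra. The summit lay between 25 and 75% of the width of its interval in 24 of 30, where 91.4% of summits in the list were. Among the intervals of 2.5 kb or more it was so in 6 of 9 in the windows and in 69.8% of the 410 in the list, so the windows were near the list's share. In the interval of 9776 bp at Notch1 the summit was at 27.2% of the width, and in that of 15682 bp at Dtx1 at 30.8%, both towards lower coordinates.

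The 19 intervals at Notch1 and Dtx1 and the 11 at the other 4 genes were set side by side. This split was made with the widths already known, so the difference in width is in part set by the grouping. Median widths were 2205 and 1076 bp and median heights 15 and 16. The highest heights were 38 and 28. Of the 9 intervals of at least 2.5 kb, 8 were at Notch1 or Dtx1 and 1, the middle one of height 21, at Hes1.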

How the data were processed

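The members, lists and motifs were chosen with earlier results of these data known. The deposited file holds 2 tracks per the file headers, summits with a score from the authors (called height) and intervals in base pairs. The score's scale, the calling threshold, read filters, use of the input and library depth are unknown here, so no counting interval can be given. The submitters' processing notes name BWA 0.6.1, SICER 1.1 and MACS, without roles, and the builds hg19 and mm9, of which mm9 is taken for the positions. Summits and intervals were joined by row order, and 8148 of 8148 summits lay inside their interval. Starts were counted from 1. Ranks count strictly taller or wider intervals, plus 1. Tiles ran from each chromosome's start to its last interval. The rule named every interval where a window held up to 10, and otherwise the 5 tallest and 5 widest. All 11 at Notch1 are given. Other NOTCH pathway genes could not be placed, because no mm9 annotation was used. GRCm38.p6 tables gave gene order, strand and promoters only. The overlap code was tested on simulated data. Python 3.11.15, numpy 2.4.6 and matplotlib 3.10.9 were used.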

Additional observations from a re-analysis of the deposited data

How the results depend on the processing

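Requiring an interval to lie wholly inside a window changed none of the counts, widths, heights, covered shares or gaps. Narrowing the windows by 10 kb on each side kept the 30 intervals and gave 14.7% covered. Widening them by 10 kb gave 34 intervals, a median height of 14.5, a median width of 1282.5 bp, a median gap of 1311 bp and 10.8% covered, against 15, 1365.5 bp, 1032.5 bp and 12.2%. Only intervals at or above the median height gave 17 intervals, with a median height of 20, a median width of 2365 bp, a median gap of 4317 bp and 9.79% covered. None of these 17 was at Notch3. Merging within 1 kb gave 18 intervals, with a median height of 16, a median width of 1616 bp, a median gap of 2083 bp and 12.8% covered. Giving ties the worst rank moved the median rank of the 30 from 3977 to 4665 by height and from 2648 to 2653.5 by width. The share of tiles with at least as many intervals stayed under 5% for Notch1, Dtx1 and Ptcra in each alternative run, but merging raised it from 0.0824% to 0.233% for Notch1 and from 0.195% to 1.20% for Dtx1, and the height limit raised it to 0.498% for Dtx1. Merging also raised it from 4.55% to 20.9% for Hes1, from 7.02% to 17.5% for Notch3 and from 10.7% to 22.5% for Myc. Each of these windows then held 1 interval, and the shares were those of tiles with at least 1 interval. The height limit gave 16.4% for Myc, narrowed windows 0.0458% for Notch1 and 0.104% for Dtx1, and widened windows 0.646% for Ptcra and 5.41% for Hes1. No paired analysis was possible because only 1 library was analysed, and no replicate could be left out. An interval below the unknown calling threshold is not in the list, which limits what its absence means.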
